A study of Homo sapiens with 4 samples.

Results

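Transcripts classed as nonsense-mediated decay (decay transcripts) were compared with the protein-coding transcripts of the same genes in A549 cell clusters with and without a knockdown of DUSP23. A decay transcript was included when its gene also had a protein-coding row in the table. This rule took 4632 transcripts of 3115 genes, out of 56389 transcripts of 16371 genes, and it used the transcript classes alone and no measured value. The other 194 of the 4826 decay transcripts had no coding sibling listed. For each gene and library the decay share was the summed level of its decay transcripts as a percentage of the summed level of all its listed transcripts. Levels are FPKM, the fragments of a transcript scaled by its length and by the size of the library.

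The libraries came from clusters of A549, an established human lung adenocarcinoma line, and measured total RNA through an mRNA library kit. One group carried the control construct shMock and is labelled wild type, and the other carried the short hairpin construct shDUSP23 and is labelled a DUSP23 knockdown, with 2 libraries (replicates 1 and 2) in each. Hairpin sequence, number of clones and the meaning of SUS in the titles are unstated in the labels. Nothing says that replicates were separate cultures, so a p-value here reflects the spread of 2 libraries per group, which may be technical. Low FPKM values lay on steps of 1 fragment, and the steps gave totals of 21274700 and 25243700 fragments for shMock and 26996300 and 42235200 for shDUSP23. For a decay transcript of the median length of 1632 bases, 1 FPKM then stood for 34.7 and 41.2 fragments in shMock and for 44.1 and 68.9 in shDUSP23.

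DUSP23, which encodes an atypical dual-specificity phosphatase, was at 29.96 and 35.9 FPKM in shMock and at 1.71 and 2.71 FPKM in shDUSP23. Of 9 lung epithelial markers 6 were listed, with KRT7, KRT8 and KRT18 at 369.9 FPKM or more in every library and KRT19 between 5.73 and 8.96 FPKM. CDH1, which encodes E-cadherin, fell from 22.4 and 21.5 to 6.198 and 8.14 FPKM (limma adjusted p = 0.000288) and EPCAM from 5.83 and 7.05 to 3.47 and 3.999 FPKM (adjusted p = 0.0254). Of the 6, 4 fell and 0 rose, against 22.2% and 23.1% of all genes. With every library scaled to the same summed FPKM 1 fell and 0 rose, and their median log2 difference moved from -0.39 to -0.05. NKX2-1, SFTPB and SFTPC had no row. Of 11 markers of leukocytes, fibroblasts and endothelium 4 were listed. CD14, a monocyte marker, was at 4.68 and 8.005 FPKM in shMock and 0.983 and 0.995 FPKM in shDUSP23, COL1A1 lay between 2.48 and 4.66 FPKM, and COL3A1 and PDGFRB were at most 0.378 FPKM. Their part in the results below was not tested. These are bulk libraries, so fewer cells of a type and less RNA per cell cannot be told apart.

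Nonsense-mediated decay removes messenger RNAs on which the ribosome stops too early. The proteins left at exon junctions during splicing are normally stripped off by the first ribosome, and a junction that remains well downstream of the stop codon marks the transcript for the UPF1 helicase and the SMG proteins, which lead it to cleavage, decapping and exonuclease digestion. Many splicing factor genes use this route on themselves: an alternative exon that carries a stop, a so-called poison exon, is included when the protein is abundant.

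The transcript models showed where these stops lie. Of the decay transcripts, 4058 (87.6%) were found in GENCODE release 29 on GRCh38, and 3984 of them, in 2838 genes, had an annotated stop codon. A splice junction followed the stop in 99.7% of these, and the last junction lay more than 50 bases downstream in 99.4%, at a median distance of 440 bases (quartiles 199 and 946) and with a median of 3 junctions after the stop. The sibling compared was the coding transcript with the highest level in its gene among those with an annotated stop codon. Of these siblings, 135 of 2823 (4.78%) had a junction after the stop. Stop positions and transcript classes both come from gene annotation. These percentages thus describe how the classes are drawn up and are not a result of these libraries. The median annotated coding length was 324 bases in decay transcripts and 1374 bases in the siblings. Among the decay transcripts 908 had no start codon in the annotation, so their coding length is incomplete and lowers that median. The stop lay in exon sequence shared with the sibling in 1995 transcripts (50.1%), outside the sibling's exons in 1744 (43.8%) and at the sibling's own stop in 224 (5.62%). Of those outside, 1002 carried it in a whole internal exon that the sibling lacks, with a median length of 124 bases. TGA was the stop in 58.1% of decay transcripts and in 50.3% of siblings, TAA in 23.0% and 29.1%, and TAG in 18.8% and 20.5%.

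The stops of 9 members that the results below turn on are shown to make these arrangements visible. Each line gives 12 bases before the stop, the stop codon in capitals and 12 bases after it, 5′ to 3′ along the spliced transcript, from the GENCODE 29 transcript sequences. The first 3 stops lie in extra exons of SR genes. The next 2 lie in exon sequence that the coding sibling also has. FTH1-210 and RPL3-204 have theirs in sequence outside the sibling's exons, in exons that partly overlap them. SRSF2-208 and HNRNPA1-205 end at the same stop as their siblings, with further junctions behind it.
SRSF3-203: ctcaccaccctcTGAatctgcattagc
SRSF6-202: gccttttgccatTAGacgcagggtgat
SRSF4-206: ttacaaggaaaaTGAgtgaatgtggga
DDX5-218: cgaagccagttcTAAatttttatgaag
RPL13-210: acgtgcagcggcTGAaggagtaccgct
FTH1-210: ggatccctagtaTAAcacattcagtgt
RPL3-204: ctgctctgctccTGAaggcataaatct
SRSF2-208: gcggtgtcctctTAAgaaaatgatgta
HNRNPA1-205: ggcagaagatttTAAttagggaggagt

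On GRCh38 the SRSF3-203 stop is at chr6:36599852-36599854 on the plus strand, in exon 4 of 7, which is 456 bases long (chr6:36599821-36600276) and absent from the coding transcript SRSF3-208. The SRSF6-202 stop is at chr20:43459302-43459304 on the plus strand, in a 268-base exon, and the SRSF4-206 stop is at chr1:29166009-29166011 on the minus strand, in a 175-base exon. The DDX5-218 stop is at chr17:64504246-64504248 on the minus strand, in exon 2 of 12, and ends a reading frame of 114 bases, against 1842 in the sibling. The RPL13-210 stop is at chr16:89561681-89561683 on the plus strand and cuts a frame of 633 bases to 189. The FTH1-210 stop is at chr11:61965539-61965541 and the RPL3-204 stop at chr22:39316844-39316846, both on the minus strand. SRSF2-208 stops at chr17:76736161-76736163 on the minus strand, with 2 junctions behind the stop and the last 105 bases away. HNRNPA1-205 stops at chr12:54284311-54284313 on the plus strand, also with 2 junctions behind the stop, the last 75 bases away.

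Decay transcripts were mostly low. Their median mean level was 1.30 FPKM, 40.3% lay below 1 FPKM, and the highest mean was 537 FPKM. Of the 3115 genes, 2127 had 1 decay transcript, 681 had 2 and 307 had 3 or more, up to 11. The mean decay share had a median of 11.9% over genes (quartiles 4.61% and 26.6%), and it exceeded 50% in 224 genes. The decay class was at 0 in 193 and 264 genes in shMock, in 240 in shDUSP23 replicate 1 and in 578 in shDUSP23 replicate 2, the library with the most fragments. The correlation of the log2 decay share across tested genes was 0.88 between the shMock libraries, 0.76 between the shDUSP23 libraries and 0.73 to 0.84 across the groups. Genes are not independent replicates, and these values share the library and the method that divides fragments among overlapping transcripts.

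Summed over all 3115 genes, decay transcripts held a larger share of the RNA of their genes in shDUSP23. The summed decay share was 9.99% and 9.66% in shMock and 12.6% and 12.4% in shDUSP23. Both shDUSP23 values lay above both shMock values, with means of 9.82% ± 0.234 and 12.5% ± 0.133 (SD, n = 2 libraries each), 2.65 percentage points apart. With 2 libraries against 2 the exact two-sided permutation test over 6 regroupings cannot go below p = 0.333, which is the value it gave. The decay transcripts themselves summed to 15383 and 15678 FPKM in shMock and 16042 and 16106 FPKM in shDUSP23, a ratio of 1.03. The whole genes summed to 154021 and 162350 FPKM in shMock and to 127612 and 130080 FPKM in shDUSP23, a ratio of 0.815. On the deposited scale the larger share came with a small difference in the decay sum and a larger one in the gene sum. Both ratios depend on how the libraries are scaled, while the share of a library does not. With every library scaled to the same summed FPKM, the median log2 difference of all genes moved from 0.03 to 0.34. Which of the 2 sums differed is therefore not settled. Part of the gene sum is ribosomal: the 27 ribosomal protein members summed to 26903 and 32333 FPKM in shMock and 12740 and 12530 FPKM in shDUSP23, and without them the decay share was 11.5% and 11.3% against 13.6% and 13.3%. The median over genes was 10.1% and 10.3% in shMock and 12.5% and 11.3% in shDUSP23.

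The other noncoding classes of coding genes give a reference. Retained-intron transcripts, in 4777 genes, held 10.01% and 10.3% of the summed gene level in shMock and 11.3% and 11.1% in shDUSP23, and their median share was 11.3% and 12.6% against 11.1% and 10.2%. Their summed share was thus higher and their median share lower in both shDUSP23 libraries. The class named processed_transcript, in 2984 genes, held 11.5% and 11.2% against 13.0% and 12.8%, with medians of 10.4% and 10.6% against 11.3% and 11.1%. In the 1827 genes with both decay and retained-intron transcripts, decay transcripts stood at 0.825 and 0.768 times the retained-intron level in shMock and at 0.938 and 0.936 times in shDUSP23.

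**Figure D1:**
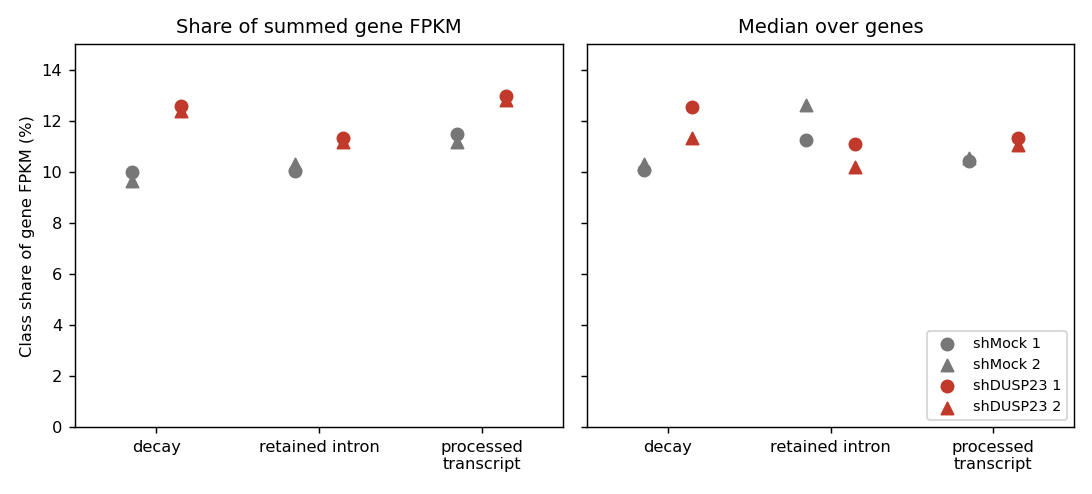
Share of gene FPKM held by 3 transcript classes in each library (y axes in percent; grey, shMock; red, shDUSP23; circle, replicate 1; triangle, replicate 2), as a share of the summed level of the genes (left) and as the median over genes (right). The decay class is at 9.66% to 9.99% in shMock and 12.4% to 12.6% in shDUSP23 on the left, and only for retained introns do the red medians on the right lie below the grey ones.

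Gene by gene, no decay share passed the test. The decay class had a mean of at least 1 FPKM in 2177 genes, which were tested with limma on log2 shares together with the other noncoding classes (7707 pairs of gene and class), and 938 fell below it. None was called at a Benjamini-Hochberg adjusted p under 0.05 (limma; percent called over all pairs, 0), and the smallest adjusted p was 0.276. At an unadjusted limma p under 0.05, 256 decay shares (11.8%) were higher and 47 (2.16%) lower in shDUSP23, against 7.49% and 3.84% of all pairs. In simulated shares of 7707 pairs with a like spread and independent errors, 50 pairs each were changed by 0.5, 1, 2 or 3 on the log2 scale. There limma found 0% of differences of 1, 16% of those of 2 and 28% of those of 3. These percentages hold for that setting alone, since the adjustment depends on how many pairs change. Both shDUSP23 libraries lay above both shMock libraries in 691 tested genes (31.7%) and below in 276 (12.7%), against 24.5% and 18.9% of all pairs. The median log2 difference in decay share was 0.16, with 62.2% above 0, against -0.07 for retained introns and 0.04 for processed transcripts. Without shDUSP23 replicate 1 the unadjusted counts were 321 higher and 207 lower, without shDUSP23 replicate 2 they were 216 and 96, and without shMock replicate 1 or 2 they were 188 and 16 or 161 and 10.

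The filter bears on these counts, since 288 genes reached 1 FPKM only by their shDUSP23 mean and 150 only by their shMock mean. In the 1739 genes that reached it in both groups, the groups did not overlap in 522 with higher shares (30.02%) and 199 with lower ones (11.4%). In the 938 genes below the filter the order turned, with 145 higher and 188 lower. Over all 3115 genes it was 836 higher (26.8%) and 464 lower (14.9%). Zeros were uneven: of the tested genes, 214 had a decay class of 0 in a single shDUSP23 library and 117 in a single shMock library, and 8 in each group had it in both. By level, the median log2 difference was 0.17 in 661 genes with a decay mean of 1 to 2 FPKM, 0.20 in 796 with 2 to 5 FPKM and 0.13 in 720 with at least 5 FPKM, with median standard errors of 0.60, 0.42 and 0.25.

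**Figure D2:**
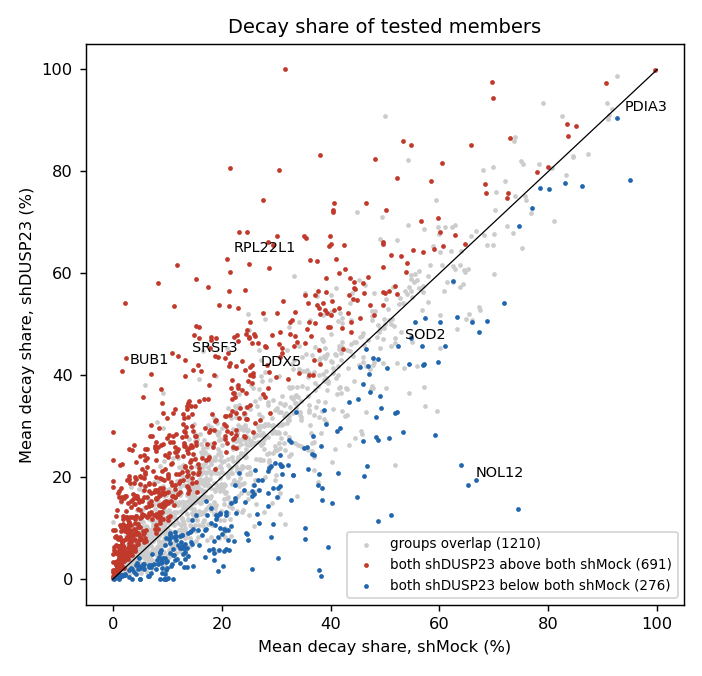
Mean decay share of each of the 2177 tested genes in shMock (x axis, percent) and shDUSP23 (y axis, percent), each point a gene, with the line of equality. Red points (691) have both shDUSP23 libraries above both shMock libraries, blue points (276) below, and grey points overlap.

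Where the stop lay, the shares differed in median. The 453 tested genes whose highest decay transcript carries its stop in an extra internal exon had a median log2 difference of 0.27, with 177 (39.1%) above and 54 (11.9%) below without overlap. For 1070 genes with the stop in shared exon sequence these were 0.16, 318 and 127, for 360 with other sequence outside the sibling 0.08, 110 and 56, and for 121 with the sibling's stop 0.10, 39 and 15. Over all 2016 tested genes with a known structure the median was 0.16, with 32.1% above and 12.5% below. The difference between these sets was not tested.

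A share can move through either of its parts, so decay and coding transcripts were also tested as levels. Of 2177 decay classes 166 rose and 93 fell (limma, Benjamini-Hochberg adjusted p under 0.05), against 10.6% higher and 11.3% lower over 21328 pairs of gene and class. Of 2988 coding classes of the same genes 337 rose and 508 fell. Gene sums of 3081 tested members rose in 646 and fell in 814, against 23.1% and 22.2% of 13691 genes. Among genes with both classes tested, 55 rose in both, 45 fell in both, 13 rose in decay and fell in coding transcripts, and 0 did the reverse. Of these 13, 7 reached the filter of 1 FPKM only by their shDUSP23 mean, the group where they are high, and 6 reached it in both groups, so nothing is read from the count of 13 against 0. A further 95 rose and 46 fell in the decay class alone. In the 391 genes whose coding class fell, the median log2 decay share difference was 0.50, in the 1498 without a coding call it was 0.14, and in the 237 whose coding class rose it was -0.15. Share and coding level are both parts of the same gene sum, so this order is partly built in.

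These level calls were fewest when a shMock library was left out. Without shMock replicate 1, 5 decay classes rose and 5 fell, and without shMock replicate 2, 4 and 2. Without shDUSP23 replicate 1 the counts were 204 and 258, and without shDUSP23 replicate 2 they were 106 and 131. Coding classes went to 31 and 69 without shMock replicate 1, to 14 and 30 without shMock replicate 2, and to 202 higher without shDUSP23 replicate 2. Genes rising in decay and falling in coding transcripts numbered 1 and 0 without shMock replicate 1 and 2, and the reverse pattern numbered 16 and 2 without shDUSP23 replicate 1 and 2. With every library scaled to the same summed FPKM the median of all genes moved from 0.03 to 0.34 on the log2 scale, and then 339 decay classes rose and 48 fell, while 639 coding classes rose and 265 fell.

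**Figure D3:**
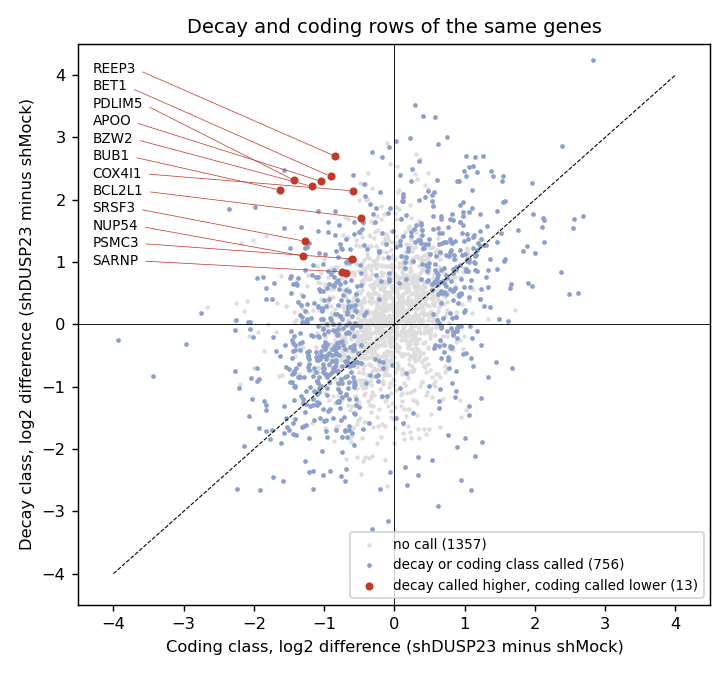
Log2 difference (shDUSP23 minus shMock) of the coding class (x axis) and the decay class (y axis) for the 2126 genes with both tested, with the dashed line of equal change. Red points are the 13 genes called higher in the decay class and lower in the coding class, blue points (756) have any other call and grey points (1357) none; the lower right field holds no such opposite pair of calls.

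SRSF3, a small SR protein that binds exons and promotes their inclusion, rose in its decay transcript and fell in its coding transcripts. Its decay transcript SRSF3-203, with the 456-base exon shown above, was at 27.3 and 20.8 FPKM in shMock and 64.4 and 57.6 FPKM in shDUSP23. Its coding transcripts were at 87.2 and 91.0 FPKM in shMock and 36.8 and 36.0 FPKM in shDUSP23. Both pairs stood apart without overlap, in opposite directions: the decay level rose by 1.34 (log2, SE 0.17; limma, Benjamini-Hochberg adjusted p = 0.00931) and the coding level fell by 1.28 (SE 0.10; adjusted p = 0.00507). The decay share was thus 15.2% and 11.2% in shMock and 44.4% and 41.8% in shDUSP23, a log2 difference of 1.70 (SE 0.18) that missed the threshold (limma, unadjusted p = 0.000258, adjusted p = 0.276). The whole gene fell by 0.37 (adjusted p = 0.0253). The opposite pair of class calls was lost when shMock replicate 2 was left out, as it was for the genes named next.

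The other 12 genes with opposite calls, named after their values were seen, have varied roles. BCL2L1, which encodes the apoptosis regulator BCL-X, had a decay level of 2.64 and 2.85 FPKM in shMock and 8.30 and 12.3 FPKM in shDUSP23, and a coding level of 90.8 and 92.2 against 64.5 and 66.4 FPKM. BUB1, a kinase of the spindle checkpoint, had a single decay transcript at 0.547 and 0 FPKM in shMock and 2.27 and 3.26 FPKM in shDUSP23, and its share went from 3.43% and 0% to 38.0% and 43.6%. In both genes the groups did not overlap in either class, which choosing them by these calls largely fixes.

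NUP54, a nuclear pore protein, and SARNP, an RNA-binding protein of mRNA export, had decay shares of 13.0% and 8.77% against 44.5% and 44.2%, and of 12.9% and 15.7% against 36.2% and 32.0%. The NUP54 value came from different transcripts, NUP54-205 at 3.46 FPKM and NUP54-211 at 0.695 FPKM in shDUSP23 replicate 1, and 0 and 4.14 FPKM in replicate 2, although both end at the same stop codon. BET1, a SNARE of transport from the endoplasmic reticulum to the Golgi, went from 1.31% and 1.0004% to 20.3% and 12.1%, mostly through BET1-208, listed at 0 in both shMock libraries and at 4.79 and 3.20 FPKM in shDUSP23. REEP3, a membrane-shaping protein of the endoplasmic reticulum, had its decay transcript listed at 0 in both shMock libraries and at 2.05 and 3.64 FPKM in shDUSP23, so no fold is given. PDLIM5 (an actin-associated LIM protein), PSMC3 (an ATPase of the proteasome), APOO (a component of mitochondrial cristae junctions), COX4I1 (a subunit of cytochrome c oxidase) and BZW2 completed the set, with shDUSP23 decay levels between 2.16 and 5.37 FPKM. In all 12 of these genes both shDUSP23 shares lay above both shMock shares, which choosing them by these calls largely fixes. BUB1, BET1, REEP3, PDLIM5, APOO, COX4I1 and BZW2 are the 7 that reached the filter only by their shDUSP23 mean.

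The other members with the smallest unadjusted p for a higher share were FTH1, RPL22L1 and DDX5. FTH1, the heavy chain of ferritin, had decay shares of 3.68% and 3.72% in shMock and 9.60% and 7.95% in shDUSP23 (log2 difference 1.24, SE 0.11; limma adjusted p = 0.276). Its decay level was 98.7 and 111 FPKM against 155 and 189 FPKM and rose (adjusted p = 0.025), mostly as FTH1-210. RPL22L1, a paralogue of the ribosomal protein RPL22, went from 20.5% and 21.3% to 56.4% and 69.2% while both parts fell, the coding level from 71.4 and 69.8 to 8.16 and 4.52 FPKM and the decay level from 18.4 and 18.95 to 10.5 and 10.1 FPKM. DDX5, a DEAD-box RNA helicase, went from 27.0% and 24.6% to 41.0% and 39.9%, and its decay level of 116 and 109 FPKM rose to 145 and 153 FPKM (adjusted p = 0.0443). In each of the 3 genes the share groups did not overlap, which choosing them by the smallest p largely fixes.

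Within DDX5 the decay transcripts did not move together. DDX5-218 was at 53.5 and 42.7 FPKM in shMock and 73.0 and 75.9 FPKM in shDUSP23, and DDX5-207 at 2.37 and 1.93 against 18.0 and 22.7 FPKM. DDX5-203 was at 56.9 and 63.1 against 51.7 and 51.4 FPKM. DDX5-218 and DDX5-207 stood higher in both shDUSP23 libraries and DDX5-203 lower, without overlap.

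On the lower side RPL13, a protein of the large ribosomal subunit, had the smallest p. Its decay share was 10.8% and 10.3% in shMock and 5.30% and 4.89% in shDUSP23 (log2 difference -1.03, SE 0.10; limma unadjusted p = 0.000202, adjusted p = 0.276). RPL13-210 fell from 101 and 109 to 25.8 and 24.5 FPKM, and the coding transcripts from 664 and 749 to 344 and 343 FPKM. NOL12, a nucleolar RNA-binding protein, had shares of 66.8% and 63.6% against 15.4% and 21.7%, with a decay level of 8.01 and 7.29 FPKM against 1.45 and 2.38 FPKM. Its decay transcript ends at the sibling's own stop. PLEKHM1, an adaptor of lysosome fusion, went from 22.4% and 20.5% to 7.28% and 4.20%, and its coding level rose from 5.22 and 5.41 to 31.8 and 38.5 FPKM. Its decay level was not lower, at 1.74 and 1.73 FPKM in shMock and 3.26 and 2.15 FPKM in shDUSP23. GRIPAP1 and the readthrough locus RPL17-C18orf32 had decay levels of 2.79 and 3.78 FPKM and of 2.42 and 7.71 FPKM in shMock and were listed at 0 in both shDUSP23 libraries. The readthrough locus shares sequence with RPL17, so its value is uncertain.

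SR proteins bind exonic enhancers and recruit the spliceosome, and 12 of 14 listed genes had decay transcripts, 11 of them tested. In 4 of these, SRSF2, SRSF3, SRSF4 and SRSF6, both shDUSP23 shares lay above both shMock shares, and in 0 below, against 31.7% above and 12.7% below over all tested members. These 4 were also those with an unadjusted limma p under 0.05. The median log2 difference of the 11 was 0.16, the same as over all tested members. SRSF2 had shares of 6.41% and 6.76% against 21.7% and 16.2%, with a coding level that fell from 90.8 and 98.4 to 31.7 and 35.7 FPKM and a decay level of 8.47 and 8.83 against 14.5 and 10.6 FPKM. Of its decay transcripts, SRSF2-208 overlapped, at 8.47 and 8.83 against 11.9 and 4.74 FPKM. SRSF2-204, with the same stop, was listed at 0 in both shMock libraries and at 2.62 and 5.84 FPKM in shDUSP23. SRSF6 had 27.8% and 30.7% against 41.4% and 54.6% with a decay level that overlapped (26.3 and 29.3 against 22.2 and 28.03 FPKM), while its coding level fell from 33.6 and 34.0 to 19.9 and 18.6 FPKM. SRSF4 had 16.5% and 11.3% against 27.4% and 24.3%, and its decay level rose from 3.59 and 2.10 to 7.86 and 6.38 FPKM (adjusted p = 0.0467). That level is a sum of SRSF4-206, shown above, and SRSF4-204, which has its stop in another exon. SRSF4-206 was at 2.99 and 1.90 against 3.998 and 3.49 FPKM. SRSF4-204 was at 0.598 and 0.202 against 3.86 and 2.89 FPKM.

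The 7 other tested SR genes overlapped. SRSF1 was at 38.4% and 42.1% against 39.5% and 45.6%, TRA2B at 26.1% and 28.3% against 24.0% and 36.2%, and SRSF5 at 6.10% and 7.42% against 9.51% and 0%. Summed over transcripts, 10 of the 14 SR genes fell and 1 rose, against 22.2% and 23.1% of all genes, with a median log2 difference of -0.44. With equal sums of FPKM 6 fell and 1 rose, with a median of -0.16, and without either shMock library 6 fell and 0 rose.

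The hnRNP proteins coat nascent RNA and often silence exons, and with other splicing regulators 26 of 35 listed genes had decay transcripts, 23 of them tested. In 12 both shDUSP23 shares lay above both shMock shares and in 3 below, against 31.7% and 12.7% over all tested members, and the median log2 difference was 0.41, against 0.16 over those members. HNRNPA1, whose decay transcript ends at the normal stop, had shares of 28.1% and 28.8% against 36.5% and 38.7%, while its decay level fell from 134 and 142 to 54.6 and 62.6 FPKM and its coding level from 314 and 322 to 85.4 and 89.9 FPKM. SNRPA1, a protein of the U2 particle, had 26.3% and 18.8% against 46.0% and 37.6%. HNRNPDL had 17.2% and 15.6% against 24.98% and 22.8%, with an overlapping decay level of 22.1 and 19.7 against 20.9 and 20.3 FPKM. HNRNPL lay on the other side, at 13.1% and 11.6% against 8.58% and 8.56%. As whole genes 14 of the 35 fell and 1 rose, against 22.2% and 23.1% of all genes, and with equal sums of FPKM 9 fell and 5 rose.

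**Figure D4:**
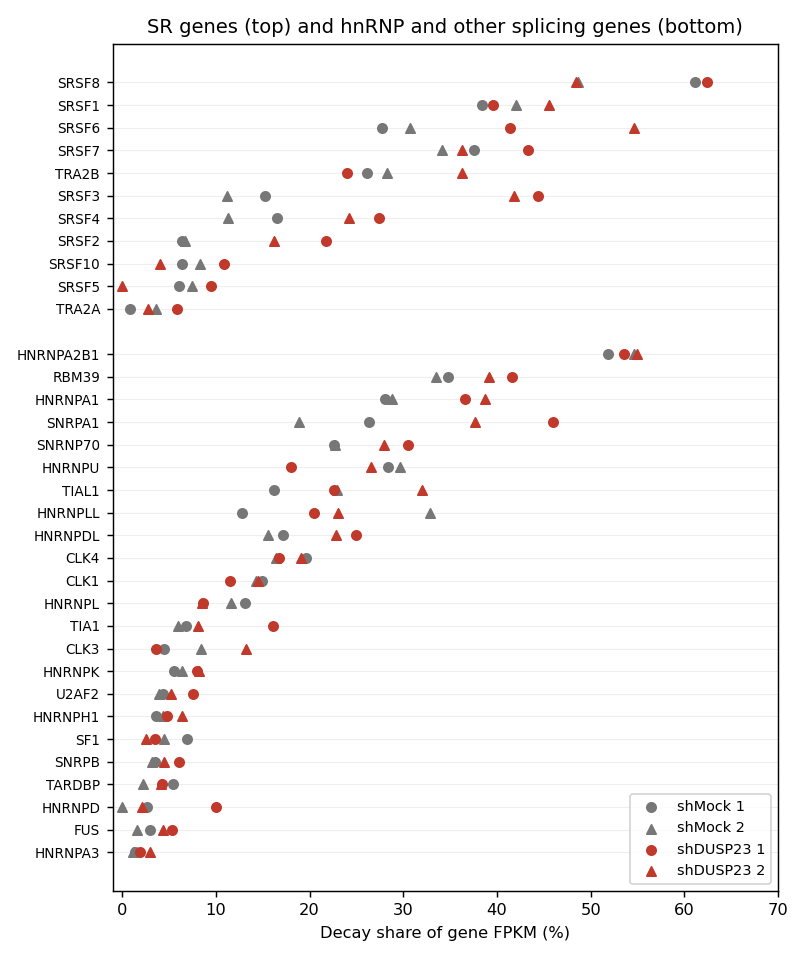
Decay share in each library (x axis, percent; grey, shMock; red, shDUSP23; circle, replicate 1; triangle, replicate 2) of the 11 tested SR genes (top) and the 23 tested hnRNP and other splicing genes (bottom), ordered by mean share. SRSF3, SRSF2, SRSF4 and SRSF6 have both red marks to the right of both grey marks, and HNRNPL, HNRNPU and SF1 have both to the left.

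Ribosomal protein genes included several known to be controlled through unproductive splicing. A list of 28 was chosen, which is only a part of the family. All 28 fell as gene sums, against 22.2% of all genes, with a median log2 difference of -1.32, and 26 fell with equal sums of FPKM. The list holds 9 genes with decay transcripts, while 27 ribosomal protein members were summed above. Of these 9, 8 were tested, 5 with both shDUSP23 shares above both shMock shares and 3 below, against 31.7% and 12.7% over all tested members. RPL3, the large-subunit protein near the peptidyl transferase centre, had decay shares of 1.49% and 1.14% against 8.01% and 5.04%. Its decay level was 9.59 and 8.52 against 18.1 and 11.8 FPKM (adjusted p = 0.11) and its coding level fell from 620 and 727 to 198 and 213 FPKM. RPS9 had 7.20% and 7.86% against 19.1% and 14.96%, with a decay level of 43.9 and 50.8 against 57.7 and 40.5 FPKM. RPL13A had 2.85% and 2.23% against 4.86% and 5.99%. RPS3, one of the members with most decay RNA, had 39.7% and 37.8% against 32.9% and 33.6%, and its decay level fell from 382 and 422 to 149 and 164 FPKM. Ribosomal protein genes have many processed pseudogenes, so fragments may be split among copies.

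Genes reported elsewhere as decay-sensitive were chosen as a further list of 20, with 5 having decay transcripts. CARS1, the cytosolic cysteinyl-tRNA synthetase, had shares of 3.44% and 7.20% against 13.2% and 12.5%, and its decay level rose from 1.25 and 2.41 to 6.94 and 5.82 FPKM (adjusted p = 0.03). UPP1, uridine phosphorylase, had 52.0% and 58.4% against 62.1% and 67.2%, with a decay level that rose from 14.5 and 14.1 to 36.7 and 36.3 FPKM (adjusted p = 0.00596). TBL2 (73.6% and 76.7% against 74.6% and 55.5%), ATF3 (0.573% and 0.0960% against 0.510% and 1.07%) and ASNS overlapped. As whole genes 11 of the 20 rose and 8 fell, against 23.1% and 22.2% of all genes, and with equal sums of FPKM 11 rose and 3 fell.

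In some genes nearly all RNA was listed as decay transcripts. Among genes averaging 20 FPKM or more the highest mean shares were those of CISD2, PDIA3, ACTR10, TIMMDC1 and VPS35. CISD2, an iron-sulfur protein of the outer mitochondrial and endoplasmic reticulum membranes, was at 92.4%, 91.1%, 92.7% and 91.7% in shMock 1 and 2 and shDUSP23 1 and 2. PDIA3, a disulfide isomerase of the endoplasmic reticulum, was at 93.1%, 92.1%, 91.7% and 89.1%, with decay levels that fell from 139 and 136 to 96.1 and 86.4 FPKM. VPS35, a retromer subunit, was at 83.8%, 83.0%, 84.9% and 93.7%. These shares depend on how fragments common to decay and coding transcripts were divided, by a method the sources used here do not name.

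The highest decay levels were in OASL, SOD2, RPS3, COX6C and HNRNPA2B1. OASL, an interferon-induced protein of the oligoadenylate synthetase family, had decay levels of 494 and 397 against 643 and 613 FPKM and shares of 40.3% and 35.2% against 36.1% and 33.7%, which overlapped. SOD2, the mitochondrial superoxide dismutase, had 347 and 309 against 353 and 379 FPKM and shares of 53.6% and 51.2% against 47.2% and 44.2%. HNRNPA2B1 fell in both classes, decay from 206 and 224 to 110 and 103 FPKM and coding from 141 and 149 to 59.6 and 49.0 FPKM, at shares of 51.8% and 54.6% against 53.6% and 54.9%. COX6C, a subunit of cytochrome c oxidase, had a decay level that fell from 191 and 244 to 101 and 112 FPKM.

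The genes of the decay pathway itself were read as gene sums, against 23.1% higher and 22.2% lower over all genes. Of 14 core factors 4 rose and 0 fell, with a median log2 difference of 0.24. SMG9, a regulator of the SMG1 kinase, was at 30.2 and 32.4 FPKM in shMock and 55.5 and 53.8 FPKM in shDUSP23 (log2 difference 0.80, SE 0.12; limma, Benjamini-Hochberg adjusted p = 0.00118). PNRC2, which links UPF1 to decapping, was at 30.9 and 28.2 against 49.2 and 52.7 FPKM. SMG8, the partner of SMG9, was at 16.3 and 13.4 against 24.2 and 24.2 FPKM. In these 3 both shDUSP23 libraries lay above both shMock libraries. UPF1, the central helicase, was at 10.1 and 9.66 against 12.4 and 14.6 FPKM (adjusted p = 0.0628). With equal sums of FPKM 8 of the 14 rose and the median was 0.57, and with GC and length correction 4 rose and the median was 0.05. Without shMock replicate 2, 2 rose, and SMG8 was not called (adjusted p = 0.0638).

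Of 10 exon junction complex genes 1 rose and 4 fell. RBM8A, a core subunit, was at 76.7 and 89.6 against 49.8 and 47.0 FPKM (adjusted p = 0.00169), and PNN, a peripheral component, at 53.3 and 56.8 against 35.0 and 31.3 FPKM. CASC3, another core component, was at 24.99 and 23.6 against 34.3 and 32.0 FPKM (adjusted p = 0.0233), a call lost without shMock replicate 1 (adjusted p = 0.0758), shMock replicate 2 (adjusted p = 0.13) or shDUSP23 replicate 1 (adjusted p = 0.0656), with GC and length correction (adjusted p = 0.0962) and without the intensity trend (adjusted p = 0.0603). The RNA helicase EIF4A3 was at 47.8 and 46.3 against 35.9 and 31.7 FPKM (adjusted p = 0.0157), which was lost with equal sums of FPKM (adjusted p = 0.431) and without shMock replicate 1 (adjusted p = 0.0876), shMock replicate 2 (adjusted p = 0.0696) or shDUSP23 replicate 2 (adjusted p = 0.0638), and without the trend (adjusted p = 0.054). With equal sums 4 of the 10 rose and 2 fell.

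Among 10 genes of cap binding, termination and the poly(A) tail 5 fell and 0 rose. EIF4E, the cap-binding protein of translation, was at 46.9 and 55.1 against 18.8 and 18.3 FPKM (log2 difference -1.43, SE 0.14; adjusted p = 0.000148). NCBP1, of the nuclear cap-binding complex, was at 11.8 and 13.0 against 4.52 and 4.61 FPKM, and ABCE1, which recycles ribosomes, at 44.6 and 41.9 against 18.0 and 20.6 FPKM. ETF1, the release factor that reads stop codons, was at 102 and 89.6 against 64.6 and 70.3 FPKM (adjusted p = 0.0106), a call lost with equal sums of FPKM (adjusted p = 0.323) and without shMock replicate 1 (adjusted p = 0.0725), with GC and length correction (adjusted p = 0.0691) and without the trend (adjusted p = 0.0504). With equal sums 3 of the 10 fell.

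Of 27 genes of decapping and exonuclease digestion 5 rose and 8 fell, and with equal sums of FPKM 11 rose and 2 fell. EXOSC5, a core subunit of the exosome, was at 24.5 and 27.0 against 10.6 and 10.7 FPKM, and DIS3, its nuclease, at 18.0 and 17.6 against 9.25 and 9.41 FPKM. The groups did not overlap in either gene. Without shMock replicate 1 the list had 1 rise and 3 falls, and without shMock replicate 2 it had 2 and 5.

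**Figure D5:**
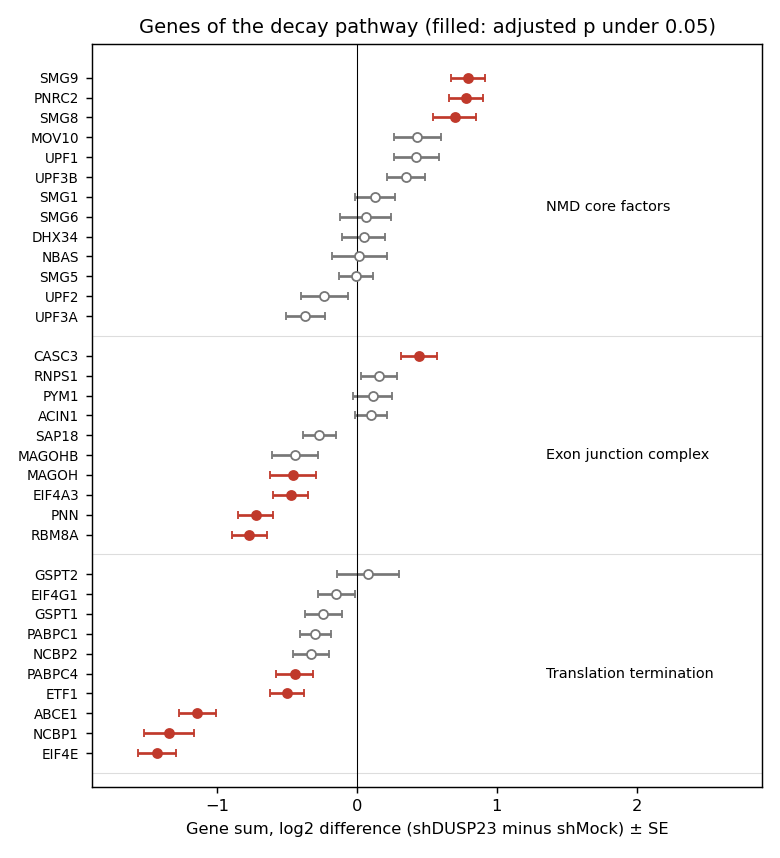
Log2 difference of the gene sum (x axis, shDUSP23 minus shMock, on log2(FPKM + 0.5)) with its standard error for core factors of nonsense-mediated decay, the exon junction complex and cap binding, termination and poly(A) genes. Filled red points passed the test (limma, Benjamini-Hochberg adjusted p under 0.05): 3 of the core factors drawn and 1 junction complex gene lie to the right of 0, and 4 junction complex genes and 5 of the last group to the left. With equal sums of FPKM 4 junction complex genes rose and 2 fell, and 3 of the last group fell.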

How the data were processed

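RNA sequencing gave 1 deposited FPKM value per Ensembl transcript and library, computed by the authors. STAR 2.7.1a, DESeq2 1.32.0 and the build GRCh38 come from the submitters' processing notes. Quantifier, annotation release and strandedness: not given in the sources used here. FPKM of each class and gene were summed per library. Members and gene lists were chosen with earlier results of these data known. Class shares were tested as differences between log2(class FPKM + 0.5) and log2(gene FPKM + 0.5), for classes with a mean of at least 1 FPKM, with limma 3.58.1 (R 4.3.3, intensity trend, Benjamini-Hochberg adjustment over all pairs); class levels and gene sums were tested likewise. Fold changes on this scale understate those of low values. The fit was tested on simulated data. Fragment totals came from values on steps of 1 fragment, of which 82.5% to 84.9% per library were whole within 0.1 fragment; a count model was not run. Structures and sequences came from GENCODE 29. Named were the 5 members with the smallest p in each direction, the 5 with the highest share and decay level, and, of each list, the 4 with the smallest p. Further names were chosen after values were seen. Alternatives were other pseudocounts, filters, scalings, fits, a replicate block, GC and length correction and leaving out each library. Python 3.11.15, pandas 2.3.3 and matplotlib 3.10.9 made tables and figures. Some genes and sequences met by these rules are not reported here.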

Additional observations from a re-analysis of the deposited data

How the results depend on the processing

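With 2 libraries per group the calls move with each library, and class levels depend on how overlapping transcripts were resolved. No decay share was called under any alternative run. Members with higher shares at an unadjusted p under 0.05 (limma) numbered 106 with a class mean of at least 5 FPKM and 161 to 321 with a library left out, and those with lower shares 122 without a filter, 14 at 5 FPKM and 10 to 207 with a library left out. The median log2 share difference was 0.113 without a filter, 0.128 at 5 FPKM, 0.126 with equal sums, 0.259 as a ratio to coding transcripts and 0.143 to 0.227 with a library left out. Decay classes called higher numbered 339 with equal sums and 99 without the intensity trend, and 4 to 204 with a library left out. Those called lower numbered 48 and 47, and 2 to 258. Coding classes called higher numbered 639 and 120, and 14 to 289, and those lower 265 and 225, and 30 to 554. The difference in summed decay share was 1.73 points as a median over members, 2.88 after GC and length correction, 2.09 without ribosomal protein genes, 2.35 without the 10 genes of highest level, 3.06 at a class mean of at least 1 FPKM and 2.49 to 2.82 with a library left out. Decay called higher with coding lower numbered 3 without the trend and 0 to 19 with a library left out. The reverse numbered 2 with a pseudocount of 1 FPKM, 1 without a filter, 2 with equal sums and 0 to 16 with a library left out.

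Shares near 0 change turned sign. CISD2 gave -0.00211 to 0.0175 with a library left out (-7.58e-05 without shDUSP23 replicate 1) and -0.0267 as a ratio to coding transcripts. PDIA3 gave 0.298 as that ratio and 0.0195 over decay and coding transcripts alone. ACTR10 gave -0.0608 to 0.0363 with a library left out (0.0201 without shMock replicate 2), 0.261 as the ratio and 0.025 over decay and coding transcripts. VPS35 gave -0.0383 as the ratio, COX6C -0.14 to 0.358 with a library left out (lowest without shDUSP23 replicate 2) and HNRNPA2B1 -0.00865 to 0.0678 (lowest without shMock replicate 1). The cause was not tested.

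Same-numbered libraries did not pair: the correlation of their deviations was 0.03 for shares and 0.05 for gene sums. With the replicate number as a block 0 shares were called, 243 were higher and 45 lower at an unadjusted p under 0.05 and the median was 0.16. Decay levels were called higher in 138 and lower in 91, coding levels in 279 and 462, and the opposite pairs of calls numbered 12 and 1.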

Other observations

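Some genes that take part in decay had decay shares tested themselves. These were 2 of the 14 core factors, 2 of 10 junction complex genes, 3 of 10 cap binding, termination and poly(A) genes and 5 of 27 decapping and exonuclease genes. In the same order, shares without overlap numbered 1, 0, 2 and 1 higher and 1, 0, 0 and 2 lower. Over all tested members these were 31.7% and 12.7%. The next 2 genes are examples. DHX34, a helicase that binds UPF1, had decay shares of 25.6% and 27.8% in shMock and 19.7% and 19.3% in shDUSP23. NCBP2 of the nuclear cap-binding complex had 9.90% and 6.74% against 18.5% and 15.9%. Both pairs stood apart without overlap, in opposite directions.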
